A study of Homo sapiens with 7 samples.

Results

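The comparison described here asked what a farnesyltransferase inhibitor (FTI) did to the transcripts of human fibroblasts that overexpressed prelamin A, and it was chosen by its labels as the array of prelamin A cells with FTI against the array of prelamin A cells without it. These are 2 of the 7 arrays of the series. The cells were dermal fibroblasts, and RNA was taken at passage 10 from every culture. The study calls the arrayed lines isogenic and names more than 1 healthy newborn line as its source of fibroblasts. Which of them was arrayed is not given here. The prelamin A group is labelled as overexpressing prelamin A with no other agent, and the prelamin A and FTI group as the same with L-744832 at 10 nM for 48 h. The vehicle named in the protocol is DMSO, and the labels do not say which untreated cultures received it. The other arrays were 2 controls, for which the labels name no construct, 1 labelled as prelamin A with overexpressed ZMPSTE24, 1 of progerin and 1 of progerin with FTI at the same dose and time. By the study's methods the proteins were delivered by lentivirus, as a model of prelamin A from an introduced construct. LMNA, which encodes prelamin A, had a signal of 8498 on the array labelled prelamin A, the lowest of the 7, and 9814 with FTI, against 9300 and 14029 in the controls, 9488 with ZMPSTE24, 16289 in progerin cells and 15240 in progerin cells with FTI. ZMPSTE24 had 5779 on the array labelled with it, against 6120 and 5180 on the prelamin A arrays without and with FTI and 4841 and 4973 in the controls. Whether these probe sets read the introduced constructs was not tested, and the groups are called by their labels. Every transduced or treated condition had 1 array, so the differences below are descriptions of these arrays, and the difference between the 2 controls served as the yardstick.

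Lamin A, a structural protein of the nuclear lamina, is made as prelamin A, whose last residues form a CAAX motif. Farnesyltransferase attaches a farnesyl lipid to this motif, and the protease ZMPSTE24 then removes the farnesylated end to leave mature lamin A. Progerin, the truncated lamin A of Hutchinson-Gilford progeria, lacks the cleavage site and keeps its lipid. An FTI blocks the first step, so it acts on the lipid of prelamin A and progerin but also on other farnesylated proteins, such as HRAS and the B-type lamins, and it is known to improve the shape of nuclei in such cells.

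The title of the treated array names FTI and leaves out prelamin A, whereas its source and treatment labels name both. Over 12726 genes its log2 signal correlated most with the prelamin A array (Pearson r = 0.973 across genes), then with prelamin A and ZMPSTE24 (0.969), progerin and FTI (0.958), progerin (0.956), control 1 (0.939) and control 2 (0.916). Genes are not independent replicates, and the arrays share a platform and are of lines that the study calls isogenic. ID1, an inhibitor of differentiation factors that BMP signals induce, had a signal of 14766 on the prelamin A array and 11807 on the FTI array. It read 430 and 888 in the 2 controls, 168 with ZMPSTE24, 171 in progerin cells and 182 in progerin cells with FTI, so the treated array and the prelamin A array were the only high ones of the 7 for this gene. It was 1 of 6 genes over 8-fold higher on the prelamin A array than on each of the 5 arrays other than the FTI array. On the FTI array 4 of the 6 were still higher than on those 5, ID1 alone by over 8-fold, while MMP10 and MMP3 were not. All 12 dermal fibroblast markers had a signal of at least 100 on both arrays, with a summed signal of 306190 on the prelamin A array and 272985 on the FTI array. For markers of other cells that the platform measures, the share at a signal of 100 was 3 of 10 on both arrays for keratinocyte genes. It was 1 of 6 on both for melanocyte genes. With FTI it went from 1 to 2 of 9 for endothelial, from 2 to 1 of 9 for leukocyte and from 2 to 3 of 6 for neural genes. It was 2 of 6 for adipocyte and 5 of 10 for embryonic kidney genes on both arrays. These shares leave out brightness. Keratinocyte genes summed to 22930 without and 22200 with FTI, above the controls at 13175 to 19617, with DSP the brightest at 15474 on the FTI array. Neural genes summed to 704 and 952, above the controls at 89.1 to 141. Adipocyte genes, at 487 and 821, lay between the controls at 331 and 1330. The ratio of 3' to 5' actin probe sets, a sign of RNA integrity, was 1.62 on the prelamin A array and 1.26 on the FTI array, against 1.24 and 1.06 in the controls, and its part in the results was not tested. For 3' to 5' GAPDH the ratios were 0.861 and 0.902.

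With FTI, 292 genes were over 2-fold higher (2.29% of the 12726 tested) and 373 were over 2-fold lower (2.93%), on the scale of log2(signal + 16). The same count between control 1 and control 2 gave 632 genes higher (4.97%) and 549 lower (4.31%), so more genes differed between the 2 controls than between the cultures with and without FTI. The genome-wide spread of the log2 difference was 0.49 (SD across genes) for FTI and 0.62 for the controls. Of the 665 genes over 2-fold with FTI, 522 differed by more than the controls did for that gene, 222 of them higher and 300 lower. In limma with 6 conditions, where the controls were the only replicated group and left 1 residual degree of freedom, 152 genes were over 2-fold higher at an unadjusted p under 0.05 (1.19%) and 206 were lower (1.62%). No gene had a limma adjusted p under 0.05 (smallest 1.00). Of the 12726 genes 362 had an unadjusted p under 0.05 at any fold, a smaller share than the 0.05 expected if no gene changed. These p-values take each lone array to vary as the 2 controls did. Whether the difference between the controls was technical or lay between cultures was not tested.

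Most of the genes past 2-fold were dim. In 393 of the 665 the brighter of the 2 arrays was below a signal of 200, and 160 had a signal of at least 500 on 1 of the arrays, 61 of them higher and 99 lower with FTI. Of all genes at 2000 or more on the brighter array, 1.99% were over 2-fold with FTI and 5.23% between the controls, against 15.8% and 21.0% of genes under 100. Within the 99 bright lower genes, the prelamin A array was the highest of the 7 in 73, and the FTI array fell inside the range of the 5 remaining arrays in 56. Within the 61 bright higher genes, the prelamin A array was the lowest of the 7 in 28, and the FTI array was inside that range in 36. The genes were selected on the prelamin A array, so these counts describe where the pair stood and are no test of a return to control.

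**Figure D1:**
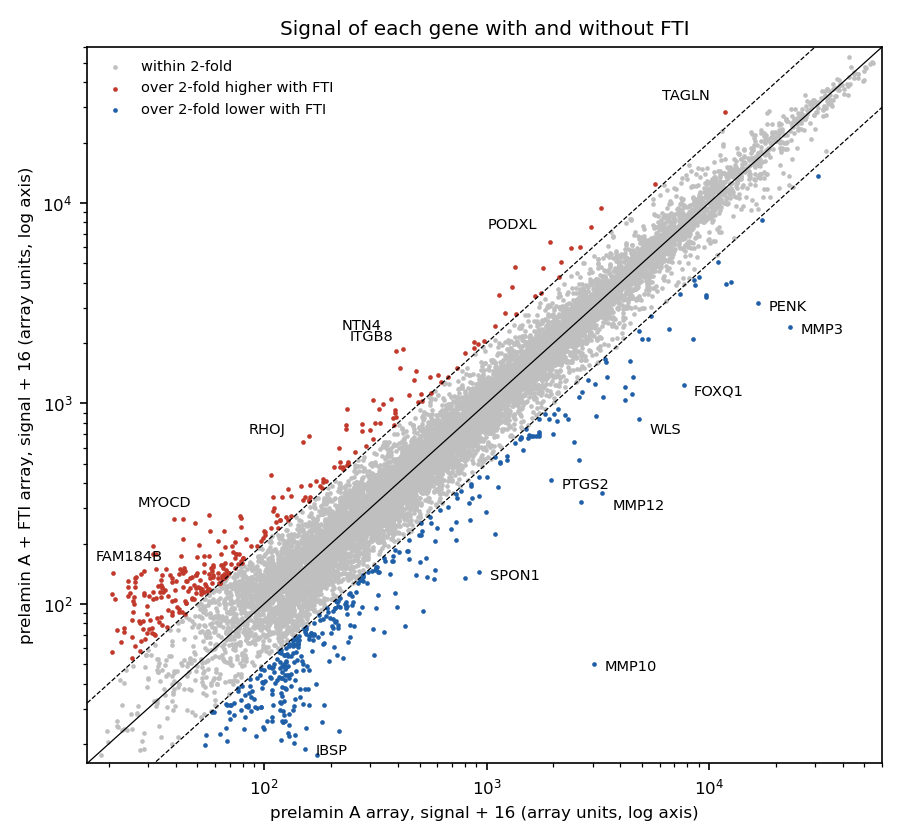
Signal + 16 of each gene tested (Y-linked genes and XIST left out) on the prelamin A array (x axis, array units, log scale) and on the prelamin A and FTI array (y axis, same units and scale). The solid line marks equal signal and the dashed lines a 2-fold difference, with red and blue points for genes over 2-fold higher and lower. MMP10, at 3024 and 33.8, lies farthest below the line.

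The matrix metalloproteinases, secreted or membrane-bound zinc proteases that cut collagen and other matrix proteins, included the gene with the largest decrease. MMP10 (stromelysin-2) had a signal of 3024 on the prelamin A array and 33.8 on the FTI array. It read 74.8 and 249 in the controls, 1.94 with ZMPSTE24, 29.7 in progerin cells and 39.2 in progerin cells with FTI, so the prelamin A array alone was high. In RNA of a whole culture, fewer cells that express a gene and less RNA per cell cannot be told apart. The difference with FTI was -5.93 (SE 0.82, limma unadjusted p = 0.0012), and since 33.8 is near background its size depends on the pseudocount, from -4.98 with 64 to -6.44 with 1. MMP12 (macrophage elastase) went from 3291 to 341, with controls at 15.0 and 94.1, which left it above both controls (difference -3.21, SE 0.94, limma unadjusted p = 0.022). MMP3 (stromelysin-1) went from 23076 to 2381, between the controls at 179 and 2773. Its difference of -3.27 was smaller than the -3.84 between the controls, and its limma unadjusted p was 0.14. MMP1, the interstitial collagenase, had 33449 without and 18167 with FTI, a difference of -0.88 that stayed under 2-fold.

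MMP10, MMP1, MMP3 and MMP12 stand next to one another on chromosome 11 in the RefSeq annotation of GRCh38.p14, in a run of 9 protein-coding metalloproteinase genes from MMP7 to MMP13. The 6 measured members of this run were all lower on the FTI array, where 51.7% of all genes were below 0, and 5 of the 6 were also lower in control 1 than in control 2. MMP7 (matrilysin) went from 187 to 67.7, a difference of -1.28, and MMP27 from 232 to 82.9, a difference of -1.33.

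Outside this run, MMP11 (stromelysin-3) had 465 and 123, below the controls at 190 and 178 (difference -1.79, limma unadjusted p = 0.0063). MMP28 (epilysin) had 227 and 52.6, with controls at 165 and 180, and MMP14, the membrane-type collagenase that activates pro-MMP2, had 1654 and 674 with controls at 770 and 2104. MMP25, a membrane-anchored member, stood at 161 and 72.3. In all, 9 of the 26 measured members of the protease and inhibitor list were over 2-fold lower and 2 higher. Of all genes 2.93% were over 2-fold lower and 2.29% higher. The counts of this list and of those below are to be read against these shares. The median difference of the list was -0.47, against -0.01 over all genes and -0.22 for the list between the controls. The 2 higher members were ADAMTS1, a protease that cuts the proteoglycans aggrecan and versican, at 3245 and 9408 (difference 1.53, limma unadjusted p = 0.019), and MMP17 at 40.4 and 125. The TIMP inhibitors were within 2-fold: TIMP1 went from 40447 to 34982, TIMP2 from 26492 to 27067 and TIMP3 from 15487 to 17681. Gelatinase MMP2, at 24807 and 18744, also stayed under 2-fold.

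**Figure D2:**
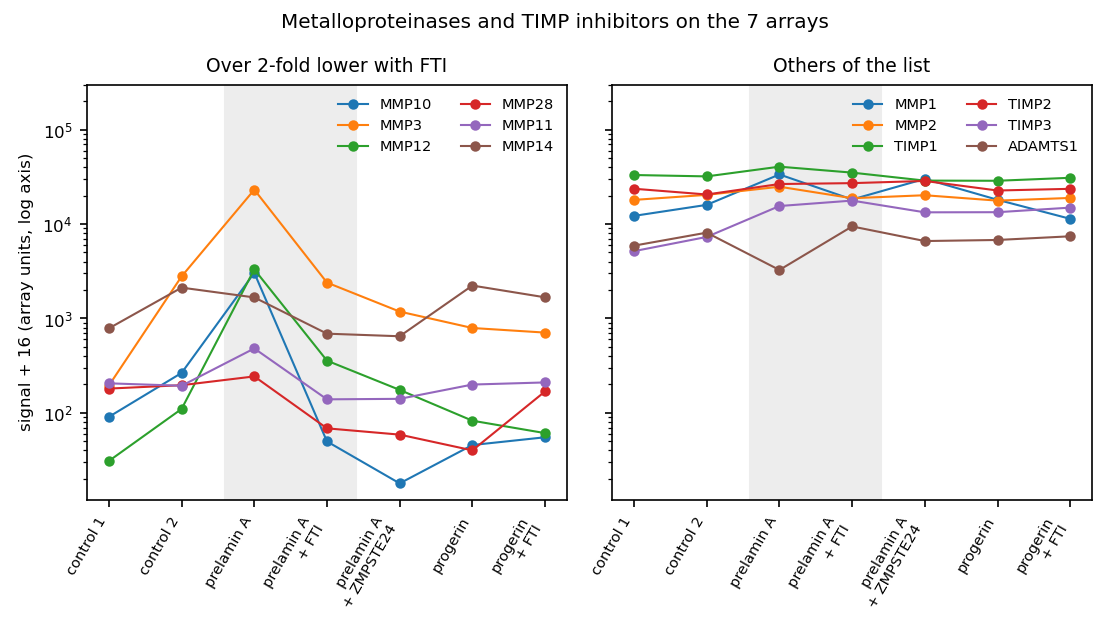
Signal + 16 (y axis, array units, log scale) on each of the 7 arrays (x axis) for 6 metalloproteinases that were over 2-fold lower with FTI (left) and for 6 other members of the list (right). Each line joins the values of 1 gene and the grey band marks the pair compared. MMP10, MMP3 and MMP12 peak on the prelamin A array at 3024, 23076 and 3291, while the TIMP genes are flat across the band.

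Secreted inflammatory factors were the second group with many lower members, 11 of 37 measured over 2-fold lower and 2 higher, with a median of -0.25. Over all genes the shares were 2.93% lower and 2.29% higher. The controls differed over 2-fold in 13 of the same genes (3 higher and 10 lower in control 1) with the same median of -0.25, so for most members the yardstick was as wide as the difference. PTGS2, the inducible cyclooxygenase, went from 1940 to 398 while the controls stood at 6043 and 8181, so the FTI array was the lowest of the 7 (difference -2.24, SE 0.42, limma unadjusted p = 0.0043). Complement C3 went from 329 to 56.5, below the controls at 71.0 and 91.3 (difference -2.25, limma unadjusted p = 0.0033). TNFAIP6, a secreted hyaluronan-binding protein induced by cytokines, went from 2654 to 307, inside the range of the controls at 259 and 1664 (difference -3.05, limma unadjusted p = 0.070). GDF15, a stress-induced cytokine of the TGF-beta family, went from 486 to 147, with controls at 143 and 626. IL6, the main inflammatory cytokine of senescent fibroblasts, had 1312 and 771 against 10434 and 7980 in the controls, a difference of -0.75 that stayed under 2-fold. CSF1, the macrophage growth factor, was over 2-fold higher at 1746 and 3548, above the controls at 1009 and 942. Further probe sets of CSF1 did not all rise, with differences of 1.21, -0.02 and -0.20. NFKB1, at 860 and 814, and NFKBIA, at 2350 and 1737, were under 2-fold.

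The neutrophil-attracting CXC chemokines were dim in these cells. CXCL5 had 157 on the prelamin A array and 1.66 on the FTI array, and every array but the first was near background, with controls at 5.46 and 24.3. Its difference of -3.29 (SE 0.57, limma unadjusted p = 0.0030) ranged from -1.75 with a pseudocount of 64 to -5.89 with 1. CXCL8 went from 159 to 52.4, but its controls stood at 131 and 3256. CXCL1 went from 72.6 to 20.9 and CXCL2 from 81.7 to 22.1, both under a signal of 100, and CXCL3 went the other way from 9.40 to 37.9 in the same dim range. Promoter stretches of these 5 genes are shown because each holds the same short sequence, and its part in the differences was not tested. Below are RefSeq sequences (GRCh38.p14) upstream of each start site, 5′ to 3′ on the strand of the gene, with capitals for GGAATTTCC, a site of the kind NF-kB binds, and for the AP-1 site TGAGTCA or its complement TGACTCA.

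CXCL1 (chr4:73869299-73869339, plus strand): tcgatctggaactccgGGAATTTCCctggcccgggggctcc
CXCL2 (chr4:74099248-74099288, minus strand): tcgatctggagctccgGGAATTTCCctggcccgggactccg
CXCL3 (chr4:74038743-74038783, minus strand): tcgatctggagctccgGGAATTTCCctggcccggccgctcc
CXCL5 (chr4:73998743-73998783, minus strand): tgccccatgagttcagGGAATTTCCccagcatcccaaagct
CXCL8 (chr4:73740418-73740502, plus strand): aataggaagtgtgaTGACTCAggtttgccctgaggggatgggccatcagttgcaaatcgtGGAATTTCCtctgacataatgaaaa

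The GGAATTTCC site began at position -78 from the start site in CXCL1 and CXCL3, -77 in CXCL2, -90 in CXCL5 and -91 in CXCL8. Searched on both strands, it stood in 162 of 35116 promoter windows of 300 bases (0.461%), and in 8 of the 30 secreted inflammatory genes that had a window. The 3 of these 8 that are not chemokines, ICAM1, NFKB1 and NFKBIA, were under 2-fold with FTI. A match is a description of these letters and no measure of binding.

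For the metalloproteinases, the windows of MMP10 and MMP7 are shown from RefSeq (GRCh38.p14, chromosome 11), with capitals for the TATA box TATAAA and, in MMP7, for the AP-1 site. MMP1, MMP3 and MMP12 are named only.

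MMP10 (chr11:102780604-102780749, minus strand): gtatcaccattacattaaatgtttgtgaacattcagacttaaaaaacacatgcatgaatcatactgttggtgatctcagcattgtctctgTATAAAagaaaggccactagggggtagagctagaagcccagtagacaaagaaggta
MMP7 (chr11:102530748-102530854, minus strand): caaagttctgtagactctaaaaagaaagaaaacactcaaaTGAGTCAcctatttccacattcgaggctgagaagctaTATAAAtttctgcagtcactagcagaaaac

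TGAGTCA, searched as an exact match on both strands, began at position -67 in MMP7, and the 300-base window of MMP10 held no exact match. The MMP10 stretch above does hold tgaatca, which differs from TGAGTCA by 1 letter. Near matches of this kind were not searched for in any window. It stood in 4.95% of all windows, in 1 of the 11 metalloproteinase and inhibitor genes that had a window and in 5 of the 30 secreted inflammatory genes. TATAAA, searched on the strand of the gene, stood in 7.33% of all windows, at -31 in MMP10 and -30 in MMP7.

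WNT genes moved in both directions. WNT proteins are lipid-bound signals that act through Frizzled receptors, and the SFRP proteins bind and hold them outside the cell. SFRP2 went from 9652 to 3396 and SFRP4 from 3091 to 846, both still above the controls (277 and 305 for SFRP2, 184 and 290 for SFRP4), with differences of -1.50 and -1.85 and a limma unadjusted p of 0.013 for each. SFRP1, at 11955 and 13552 with controls at 386 and 410, was within 2-fold. DKK1, a secreted inhibitor of the LRP co-receptors, read 30731 and 31230. NKD2, an intracellular inhibitor of Dishevelled, went from 155 to 24.0, and NOTUM, which removes the lipid from WNT proteins, from 106 to 32.7. In the list of 31 measured WNT genes 4 were over 2-fold lower and 3 higher, with a median of -0.09. The higher ones were LGR5, a receptor for R-spondins, from 42.8 to 136, and the ligands WNT16, from 294 to 648, and WNT7B, from 16.5 to 53.8. WLS, the carrier that brings WNT proteins to the cell surface, was not in the list, but it went from 4830 to 819, with controls at 477 and 407 (difference -2.54, SE 0.38, limma unadjusted p = 0.0018). Its other 2 bright probe sets gave -1.15 and -1.25.

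FOXQ1, a forkhead transcription factor, had a signal of 7676 on the prelamin A array and 1225 on the FTI array, against 205 and 449 in the controls, 969 with ZMPSTE24, 1401 in progerin cells and 773 in progerin cells with FTI. The difference was -2.63 (SE 0.63, limma unadjusted p = 0.011), and it was the only one of 23 measured forkhead genes over 2-fold. Of all genes 5.23% were over 2-fold in either direction, so the forkhead count did not exceed that share. The FTI array remained above both controls for FOXQ1.

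Further genes had large decreases. SPON1, an adhesive protein of the extracellular matrix, went from 912 to 128 with controls at 102 and 76.5 (difference -2.69, SE 0.41, limma unadjusted p = 0.0018), and its other 2 probe sets gave -1.50 and -4.38. Of neuropeptide and granule genes, PENK (proenkephalin) went from 16682 to 3149 with controls at 502 and 2738, SCG2 (secretogranin II) from 501 to 75.8 with controls at 71.2 and 89.3, and NMB (neuromedin B) from 981 to 272 with controls at 556 and 642. The control difference of -2.41 for PENK was as large as its difference of -2.40 with FTI. MARCKSL1, an actin-binding substrate of protein kinase C, went from 2596 to 509, HMOX1, which breaks down heme, from 8502 to 2090, and SLC7A8, a transporter of neutral amino acids, from 4158 to 1025. On the FTI array each of these 3 genes was above both controls. PENK, SCG2, NMB, MARCKSL1, HMOX1 and SLC7A8, like ITGB8, RHOJ, NTN4, FGF1, ADAMTSL1 and LHX9 below, were named after their values were seen.

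Of the 15 largest decreases that were also larger than the control difference, 7 had a signal of at least 500 on the prelamin A array. On the FTI array 8 of the 15 were below both controls, 3 between and 4 above. Besides those already given they included IBSP (bone sialoprotein), from 137 to 2.84, and QTRT1, a tRNA-modifying enzyme, from 200 to 7.25. The immune receptor gene FCMR went from 138 to 7.97, FCRLA from 781 to 118, and the protocadherin PCDHB4 from 122 to 6.17. SAXO5, GRIP2 and PLB1 completed the group, from 120 to 4.26, from 114 to 5.90 and from 169 to 15.2. A signal below 100 is near the background of these arrays, so the fold of the dim genes is imprecise.

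Matrix and skeletal genes were lower more often than higher. Among 50 measured proteoglycan, elastic fibre and adhesive genes, 7 were over 2-fold lower and none higher, with a median of -0.25 against -0.12 between the controls, which differed over 2-fold in 7 of them. TNC (tenascin-C) went from 6579 to 2337, below the controls at 9116 and 15536, and ASPN (asporin) from 714 to 239, below the controls at 1966 and 1862, with a limma unadjusted p of 0.039 and 0.012. ELN, the elastin gene, had 843 and 322 with controls at 215 and 534. Of the collagens and their enzymes 1 of 44 was over 2-fold lower (P4HA3, from 1110 to 367) and none higher. COL3A1 went from 23834 to 11993, a difference of -0.99, while COL1A1 had 32724 and 28921.

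Bone and cartilage genes split into 5 lower and 3 higher of 17 measured. Beside IBSP, CHI3L1, a chitinase-like secreted protein, went from 103 to 4.99. COMP, a cartilage matrix protein, went from 1979 to 686 with controls at 83.0 and 41.0, SOX9, the transcription factor of chondrocytes, from 822 to 303 with controls at 70.7 and 236, and SPP1 (osteopontin) from 1601 to 668 with controls at 176 and 209. The higher genes were ALPL, the phosphatase of mineralising cells, from 18.2 to 91.9, CYTL1 from 95.3 to 285, and TNFRSF11B (osteoprotegerin, the decoy receptor of RANKL), from 2612 to 5982 with controls at 4165 and 2312. The median of the list was -0.32, against 0.16 between the controls. In control 1, 1 gene of the list was over 2-fold higher and 3 were lower than in control 2.

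The largest increases with FTI were in dim genes. None of the 15 largest increases had a signal of 100 on the prelamin A array or of 500 on the FTI array, and 11 of the 15 were above both controls and 4 between them. FAM184B led with 4.85 and 126, where the controls read 88.8 and 80.2 (difference 2.77, SE 0.37, limma unadjusted p = 0.0011). GPRC5A, an orphan receptor induced by retinoic acid, went from 23.3 to 249 with controls at 136 and 57.8. MYOCD (myocardin), the co-activator of SRF at smooth muscle genes, went from 40.4 to 261, above the controls at 35.4 and 36.4 and above the other arrays, which ended at 105 (difference 2.30, SE 0.37, limma unadjusted p = 0.0023). A further MYOCD probe set gave 90.8 and 117, a difference of 0.32. PRLR (prolactin receptor) went from 10.4 to 119, CX3CR1 (fractalkine receptor) from 32.6 to 237 and PLIN5, a lipid droplet protein, from 8.46 to 113. The others were USH1G, KCTD4, LOC105373418, WDFY4, SUCLA2-AS1, LINC01700, LSR, PRSS36 and CCDC85C, with differences from 2.29 in CCDC85C to 2.62 in USH1G. A further probe set went the other way for CCDC85C, from 256 to 103 (difference -1.19), and for PLIN5, from 139 to 86.1 (difference -0.60).

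Among genes with a signal of at least 500, the largest increase was 2.23 on the log2 scale. ITGB8, the integrin chain that activates latent TGF-beta, went from 407 to 1850, above the controls at 1254 and 1370 (difference 2.14, SE 0.37, limma unadjusted p = 0.0032). RHOJ, a small GTPase, went from 133 to 625, above the controls at 148 and 97.6 (difference 2.11, limma unadjusted p = 0.0069), and its 6 other probe sets were all higher, by 0.84 to 2.25. NTN4 (netrin-4), a laminin-like basement membrane protein, went from 376 to 1819 between controls at 3747 and 893. FGF1, a fibroblast growth factor, went from 357 to 1034 with controls at 920 and 836, and ADAMTSL1, a matrix protein related to the ADAMTS proteases, from 1118 to 3468 with controls at 2644 and 3230, a limma unadjusted p of 0.013 and 0.011. LHX9, a homeobox factor, went from 300 to 779 and was far below the controls at 12235 and 9943 on both arrays.

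The pregnancy-specific glycoproteins, secreted immunoglobulin-like proteins whose sequences are so alike that a probe set may read more than 1 of them, were all higher in the 9 genes measured. Their differences ran from 0.50 to 1.88 with a median of 0.97, and 4 were over 2-fold. PSG9 went from 5712 to 12446 and PSG2 from 391 to 1482. The controls differed in the same family by a median of 0.78, and the median with FTI in progerin cells was -0.0027. This family was noticed in the data and is given with no test.

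Of the contractile and myofibroblast genes 2 of 29 were over 2-fold higher and none lower, with a median of 0.12 against 0.10 between the controls. TAGLN (transgelin), an actin-binding protein of smooth muscle, had 11774 without and 28263 with FTI, above the controls at 23490 and 27426 (difference 1.26, SE 0.38, limma unadjusted p = 0.025). CNN1 (calponin) went from 370 to 913, also above its controls at 561 and 405 (difference 1.27, limma unadjusted p = 0.036). ACTA2, smooth muscle actin, at 11534 and 19205, and MYL9, its regulatory myosin light chain, at 6033 and 10882, stayed under 2-fold.

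**Figure D3:**
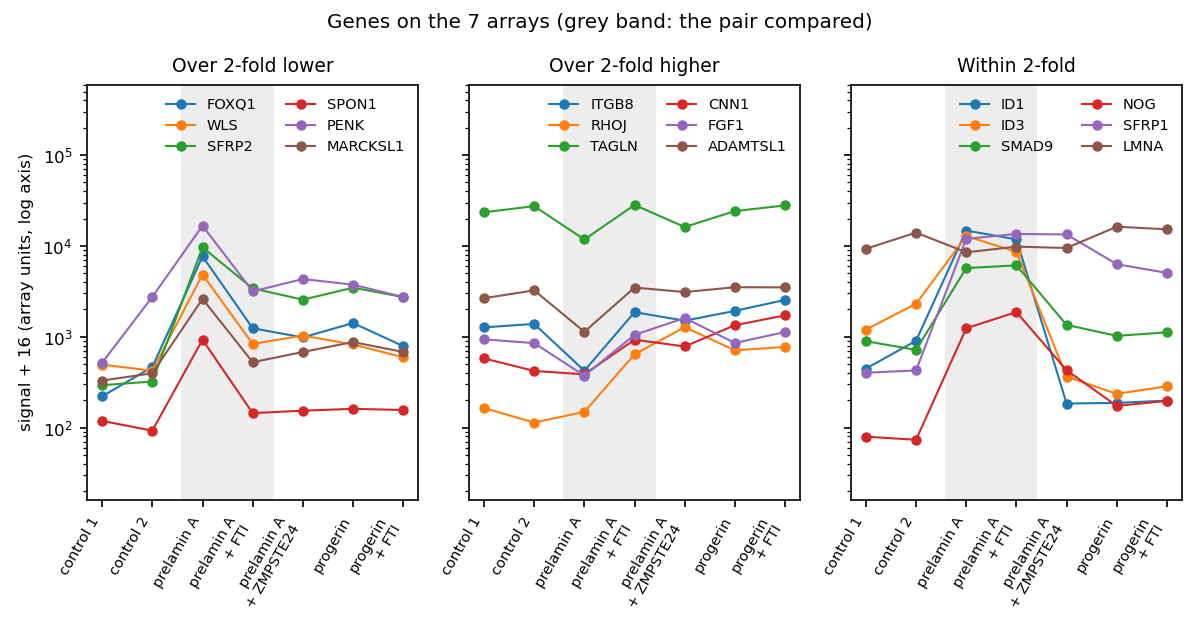
Signal + 16 (y axis, array units, log scale) on the 7 arrays (x axis) for genes over 2-fold lower with FTI (left), over 2-fold higher (centre) and within 2-fold (right). Each line joins the values of 1 gene and the grey band marks the pair compared. FOXQ1, WLS and SPON1 fall from a peak on the prelamin A array, ITGB8 and TAGLN leave a low there, and ID1 stays at 14766 and 11807.

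Of all genes 5.23% were over 2-fold in either direction, and the counts for genes near the drug's target are to be read against that share. Of 16 measured enzymes of prenylation and CAAX processing none was over 2-fold, with a median of 0.01. FNTA, the alpha chain of farnesyltransferase, had 6315 and 7099, FNTB, the beta chain, had 51.5 and 50.1, and ZMPSTE24 had 6120 and 5180. Of 35 genes for proteins with a farnesylated end, 2 were lower and none higher, both small GTPases of low signal (DIRAS3, from 151 to 49.8, and RASD2, from 196 to 86.0). LMNA is given above, and its 4 other probe sets differed by 0.01 to 0.34 with FTI. RHOB, a GTPase that can carry either lipid, had 1319 and 1677, and LMNB1 had 84.0 and 108. None of 30 lamin and nuclear envelope genes was over 2-fold, and their median was 0.02.

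Growth control genes were past 2-fold no more often than the 5.23% of all genes. CDKN1A, the CDK inhibitor p21, read 10495 and 11820 against 3789 and 5658 in the controls, and none of 17 CDK inhibitor and D cyclin genes or of 32 p53 targets was over 2-fold. The mitosis genes had a median of 0.41, and 50 of 57 were above 0, against 6142 of all 12726 genes. None of them was over 2-fold higher and 1 (NCAPH, a condensin subunit) was lower. With FTI in progerin cells their median was -0.09. The controls differed by a median of 0.60 in the same genes. The median of the 47 replication genes was -0.14, with 1 gene lower (ORC1, from 83.1 to 24.5). No gene of the hypoxia, heat shock or cytosolic ribosomal protein lists was over 2-fold.

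None of 21 measured ID and BMP feedback genes was over 2-fold with FTI. ID3 had 12826 and 8607 against 1186 and 2294 in the controls, SMAD9, a receptor-activated SMAD, 5690 and 6101 against 878 and 702, and NOG (noggin), a secreted BMP antagonist, 1225 and 1856 against 63.4 and 57.4. With ZMPSTE24 in place of FTI, on an array compared with the same prelamin A array, these 3 genes read 348, 1335 and 412.

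Smaller lists held few members past 2-fold. Of 33 immediate early genes, 4 were lower (EGR3, IER3, NR4A2 and FOS) and 1 higher (KLF4, from 2156 to 5084). Interferon response genes had 2 of 49 higher (IFI27 and IFIT2), and control 1 exceeded control 2 over 2-fold in 20 of the 49. Amino acid response genes had 5 of 43 lower, among them ASNS, asparagine synthetase, from 985 to 414, where 18 of the list differed over 2-fold between the controls, ASNS itself with 2058 and 10067. Cholesterol genes had 2 of 28 lower, INSIG1 from 5486 to 2705 and TM7SF2 from 110 to 35.4. Fatty acid and adipogenic genes had 3 higher and 1 lower of 26, cadherin and transition genes 1 higher and 3 lower of 19, and the IGF, RAS feedback, Notch and oxidative stress lists 1 lower gene each.

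**Figure D4:**
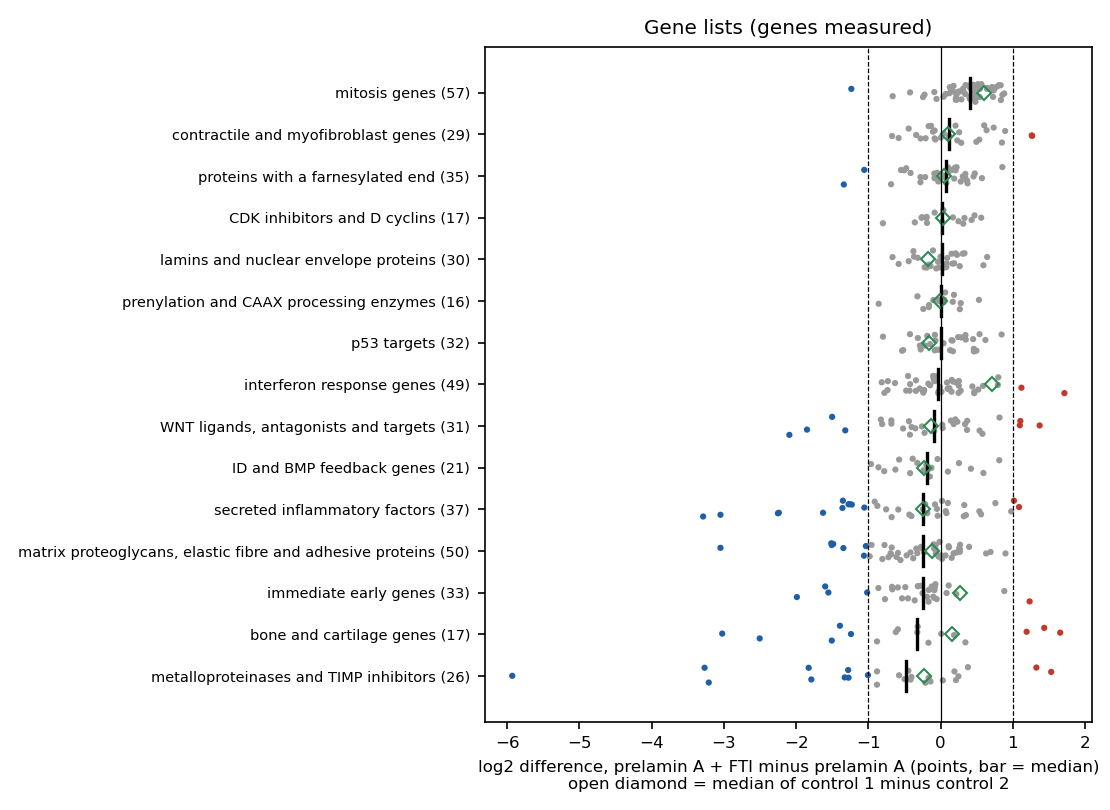
Log2 difference of prelamin A and FTI minus prelamin A (x axis) for each measured member of 15 gene lists (rows, with the number measured). Red and blue points are over 2-fold, the black bar is the median of the list, and the open diamond is the median of control 1 minus control 2. The metalloproteinases have the lowest median, -0.47, and the mitosis genes the highest, 0.41, beside 0.60 between the controls.

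The same inhibitor was applied to progerin cells at the same dose and time, on arrays that are not shared with the prelamin A pair. There 115 genes were over 2-fold higher (0.904%) and 221 lower (1.74%), and bright genes hardly moved: 6 of the 4421 genes between 500 and 2000 on the brighter array and 0 of the 3104 above 2000 were past 2-fold, against 96 of 4212 and 64 of 3210 in prelamin A cells. Across genes the 2 differences had a Pearson r of 0.056 over all 12726. It was 0.191 over the 7422 with a signal of at least 500 on 1 of the prelamin A pair. Both are descriptions over genes measured on 1 platform in lines that the study calls isogenic. Genes lower in both pairs numbered 31, which is 8.31% of those lower in prelamin A cells and 14.0% of those lower in progerin cells. Genes higher in both numbered 11 (3.77% and 9.57%), while 27 were higher in prelamin A and lower in progerin cells and 18 the reverse. None of the 30 genes with the largest decreases and increases was over 2-fold the same way in progerin cells, although 11 of the 15 decreases and 7 of the 15 increases had the same sign.

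**Figure D5:**
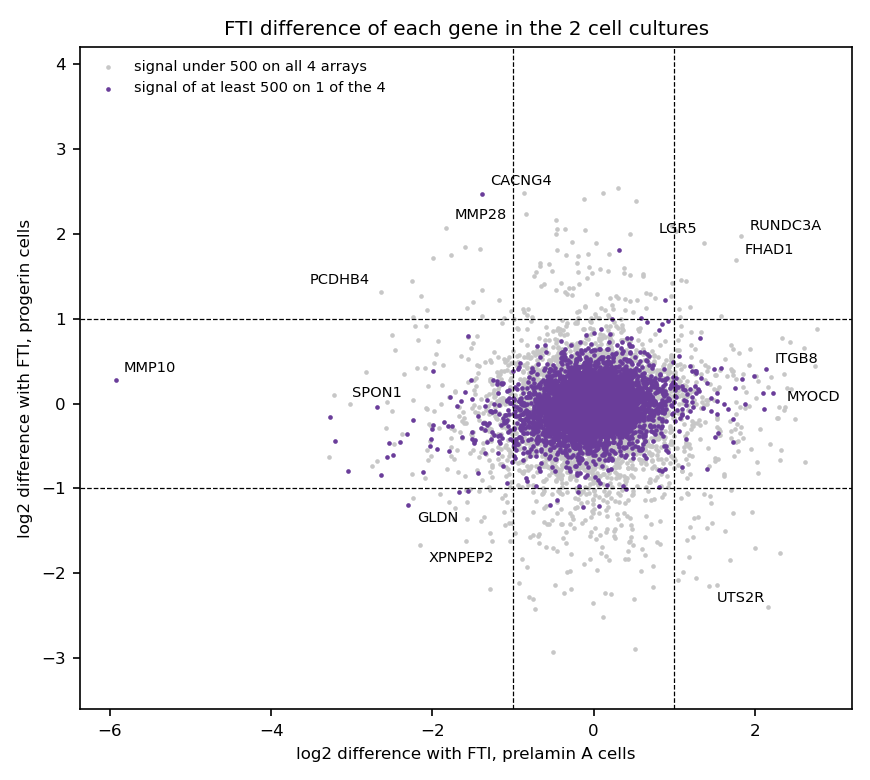
Log2 difference with FTI in prelamin A cells (x axis) and in progerin cells (y axis) for each gene, with dashed lines at 2-fold. Purple points had a signal of at least 500 on 1 of the 4 arrays and grey points did not. The bright points spread along the x axis as far as MMP10 and little along the y axis, and few genes lie past 2-fold in both.

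A limma model with 1 effect of FTI for both cultures, which had 2 residual degrees of freedom, gave 25 genes over 2-fold higher (0.196%) and 74 lower (0.581%) at an unadjusted p under 0.05. No gene had an adjusted p under 0.05. Of the 12726 genes 354 had an unadjusted p under 0.05 at any fold, again a smaller share than the 0.05 expected if no gene changed. RUNDC3A, which binds Rap GTPases in neurons, had the smallest limma unadjusted p, 0.00019, with 26.1 and 134 in prelamin A cells and 10.4 and 87.3 in progerin cells. FHAD1 (62.8 to 253, and 82.1 to 301), LGR5 (42.8 to 136, and 1.72 to 49.8), DUSP8 and DISP3 followed, and DUSP8 is a phosphatase of the JNK and p38 kinases. The lower genes of smallest p were XPNPEP2, a membrane aminopeptidase (107 to 11.7, and 91.1 to 17.7), LINC00304, IL2RB, CTSS and FAM238B. CTSS, the lysosomal protease cathepsin S, was the brightest of them, from 520 to 152 and from 200 to 88.7. MMP1 had -0.88 in prelamin A and -0.67 in progerin cells, and FOXQ1 had -2.63 and -0.84.

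The difference between the 2 effects was over 2-fold at a limma unadjusted p under 0.05 in 139 genes that were more positive in prelamin A cells (1.09%) and in 95 that were more negative (0.747%), again with no adjusted p under 0.05. MMP10 was among the latter, with 29.7 and 39.2 in progerin cells without and with FTI (difference of the effects -6.20). SPON1 gave -2.64 and MYOCD 2.34. These genes were named for their large difference with FTI in prelamin A cells, which is part of this contrast. Their place here is therefore no independent support for a difference between the cultures. MMP28 went down in prelamin A cells, from 227 to 52.6, and up in progerin cells, from 24.1 to 153. The 10 genes picked for smallest p, an equal number in each direction, were dim. The brightest value among them was 672 for CACNG4, a calcium channel regulatory subunit, in progerin cells with FTI. MMP10, at 3024 on the prelamin A array, was not picked. Its p was nevertheless smaller than that of LINC01359, which was picked in the other direction.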

How the data were processed

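Total RNA of human dermal fibroblasts was hybridised to 7 Affymetrix Human Genome U133 Plus 2.0 arrays. Linear intensity values, 1 MAS5 signal per probe set, were computed, scaled to a common level and deposited by the authors (no version is in the submitters' processing notes), and the median signal was 64.9 to 77.0 per array. Array number limits the precision. Probe-level values, and the S-score of the study that needs them, were not used here.

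The platform annotation gave 1 gene for 41091 of 54675 probe sets, several for 1801 and none for 11721, and 41037 of the first were found in RefSeq (GRCh38.p14) by gene ID, which gave current symbols. Probe sets of 1 gene that reached a signal of 100 on any array entered, and the brightest on average stood for each of 12726 genes. Values were log2(signal + 16), which understates the change of dim genes. Models were fitted in R 4.3.3 with limma 3.58.1 (1 residual and 3.50 prior degrees of freedom for 6 conditions, 2 and 2.74 for 1 effect of FTI) and checked on data with known changes. P-values are two-sided, and adjusted ones are Benjamini-Hochberg. Python 3.11.15 made the counts. Sequences are from RefSeq.

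Named genes were the 15 largest differences each way among genes over 2-fold, past the control difference and at 100 or more on 1 of the 2 arrays, the 5 of smallest p each way in both FTI models, up to 6 members past 2-fold per list, and FOXQ1, LMNA, ZMPSTE24, FNTA, FNTB, RHOB, CDKN1A, GAPDH and ACTB. Y-linked genes and XIST were left out. Members, lists and rules were chosen with earlier results of these data known. GAPDH had 42228 without and 38364 with FTI, and ACTB 43433 and 47623. Alternatives were median centring, quantile normalization, a pseudocount of 1 or of 64, other filters and probe set rules, other thresholds, an intensity trend and leaving out each control.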

Additional observations from a re-analysis of the deposited data

Results flagged for a closer look

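The difference of the FTI effect between prelamin A and progerin cells rests on 1 array per condition. It was over 2-fold at a limma unadjusted p under 0.05 in 139 genes that were more positive in prelamin A cells (1.09%). In 95 genes (0.747%) it was more negative, and no gene had an adjusted p under 0.05. At any fold 234 of the 12726 genes had an unadjusted p under 0.05, a smaller share than the 0.05 expected if no gene differed. Among the named genes with a limma unadjusted p under 0.01 for this difference, the negative ones were MMP10 (-6.20), PCDHB4 (-3.95), MMP28 (-3.90), CACNG4 (-3.86), LOC100289495 (-3.71), SDK2 (-3.69), IBSP (-3.02) and SPON1 (-2.64). The positive ones were UTS2R (3.58), ELK2AP (3.53), ANKFN1 (3.13), TMPRSS13 (2.90), LSR (2.88), LINC01359 (2.80), CCDC85C (2.46), SUCLA2-AS1 (2.44) and MYOCD (2.34). On the 4 arrays of the pairs, MMP10 and SPON1 were the brightest of these genes. All of these genes were named for a large difference in prelamin A cells or for a small p in this contrast. Their place in the list is therefore no independent support.

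Probe sets with no gene or several genes, 13522 in all, entered no comparison. Of the 1385 with a signal of at least 500 on 1 of the 2 arrays, 11 were over 2-fold higher with FTI and 24 lower, and 3 of the higher ones were also over 2-fold above both controls.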

How the results depend on the processing

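The counts moved with the threshold and with the treatment of dim genes. Genes over 2-fold higher and lower were 126 and 177 with a pseudocount of 64, 140 and 198 where genes needed a mean of 100, 932 and 1204 with no filter, and 612 and 697 over every probe set. They were 894 and 1083 over 1.5-fold, 85 and 106 over 3-fold, 33 and 55 over 4-fold, and 61 and 99 with the brighter array at 500 or more, a limit added after seeing the data. For the limma test of FTI in prelamin A cells the counts were 89 and 132 with a pseudocount of 64, 73 and 124 where genes needed a mean of 100, 398 and 515 with no filter, 288 and 334 over every probe set, 78 and 108 with an intensity trend, 31 and 42 at an unadjusted p under 0.01, and 0 and 0 at an adjusted p under 0.05. For 1 effect of FTI they were 8 and 19, 10 and 25, 118 and 269, and 56 and 128 under the first 4 of these settings. For the difference between the cultures they were 59 higher and 48 lower with the mean filter, 371 and 323 with no filter, 225 and 180 over every probe set, 54 and 44 with the trend, and 81 higher with the pseudocount of 64. Leaving out either control in turn was no test of the 1-effect model, because the controls have a coefficient of their own there. The control that remains is fitted exactly, so both fits rest on the same other arrays and must give equal counts. The 6-condition model could not be tested without a control, since no residual degree of freedom was left. Quantile normalization and median centring kept 658 and 661 of the 665 genes over 2-fold and left the share that was higher at 45.9% and 44.7%, from 43.9%.

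The median of the bone and cartilage genes was -0.59 with a signal of at least 100 on 1 of the 2 arrays and -0.62 with the median of probe sets, and the 259 other list medians moved by less than 0.19, the spread of list medians between the controls. Of 744 values of the 99 named genes over 2-fold under an alternative, 38 were no longer over 2-fold and 3 changed sign: ANKFN1 (-0.17 with no filter), LIPE (-0.34 with no filter) and TCF3 (0.011 with the median of probe sets). Other probe sets were there for 84 of the 160 genes over 2-fold at a signal of 500 or more, and of these 161 sets 154 had the same direction, 90 of them over 2-fold. For the named genes over 2-fold they numbered 41, with 37 in the same direction and 23 of them over 2-fold. No paired analysis was possible because the replicate numbers in the labels pair no arrays. The model with 1 effect of FTI already compares each treated culture with its own untreated one.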
